A study of Homo sapiens with 15 samples.

Results

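The transcriptome of HK-2 cells that had received TGF-beta (TGFb) together with FT895 for 12 h was set against that of mock-treated cells. HK-2 is an immortalised human line from the proximal tubule of the kidney, and FT895 is a selective inhibitor of the histone deacetylase HDAC11. FPKM, the deposited measure, counts fragments scaled to transcript length and library size. A locus was included when 3 or more of the study's 15 libraries reached 1 FPKM, which left 12467 of 24880 loci. Of these, 931 (7.47%) were unannotated loci assembled by the authors' pipeline.

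Polyadenylated RNA was sequenced to follow the response of wild-type HK-2 cells to TGFb in the presence of an HDAC11 inhibitor, as a culture model of renal fibrosis. The cells of the main group received TGFb at 2 ug/ml with FT895 for 12 h. The other treated groups received the same TGFb dose with DMSO as vehicle for 12 h, TGFb with FT895 for 1 h, or TGFb with DMSO for 1 h. The mock group received an equal volume of PBS and is labelled 0 h. Each of the 5 groups held 3 libraries, and all cells grew in DMEM/F12 with serum. The sources used here give no FT895 dose, and no group received FT895 without TGFb. In the comparison with mock, TGFb, FT895, the DMSO vehicle and time in culture therefore cannot be told apart. Nothing in the labels ties the 3 libraries of each group to separate cultures, so that the p-values measure a spread that may be technical.

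TGFb binds a pair of receptor kinases, TGFBR2 and TGFBR1, which phosphorylate SMAD2 and SMAD3. These join SMAD4, enter the nucleus and act on target genes with other factors such as AP-1. In the tubule epithelium the pathway is known for raising matrix genes and lowering genes of the differentiated epithelium, and SMAD7 and SKIL feed back on it as inhibitors. HDAC11 is a deacetylase that also removes fatty acyl groups from proteins.

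FPKM leaves the depth of each library unknown. Summed FPKM was 387570 to 396302 in the libraries of TGFb with FT895 12 h and 394212 to 400355 in those of mock. At 1 FPKM or more stood 11889 to 11995 loci under TGFb with FT895 and 11959 to 12010 in mock. On the first principal component, which carried 55.3% of the variance, the libraries of TGFb with FT895 12 h lay at -24.9 to -24.1 and those of mock at 17.7 to 18.1. One library outside this comparison, TGFb 1 h replicate 1, stood apart from the rest, with a residual SD of 0.211 on the log2 scale, against 0.107 to 0.156 in the other 14. It enters the shared estimate of the spread, so results that change without it are given both ways. The HK-2 label was set against genes of the proximal tubule: PAX8 (53.4 ± 2.22 FPKM in mock), CDH6 (41.9), GGT1 (74.8), MME (5.37) and SLC4A4 (8.92) were present. LRP2, SLC22A6 and the cadherin gene CDH1 were listed at 0 in all 15 libraries, and CUBN, AQP1, SLC34A1, SLC5A2, ANPEP, ALPL, HNF4A and PAX2 stayed under 1 FPKM in every library.

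The stretches upstream of 6 genes on which the results turn are given first. They are the 250 bases before the RefSeq start on GRCh38.p14, written 5′ to 3′ on the strand of the gene. The first 3 belong to chorionic gonadotropin beta genes, which include the largest rises against mock and share much of their sequence. Capitals mark the longest run, of 74 bases, that all 3 share.
CGB5, chr19:49043598-49043847, plus strand: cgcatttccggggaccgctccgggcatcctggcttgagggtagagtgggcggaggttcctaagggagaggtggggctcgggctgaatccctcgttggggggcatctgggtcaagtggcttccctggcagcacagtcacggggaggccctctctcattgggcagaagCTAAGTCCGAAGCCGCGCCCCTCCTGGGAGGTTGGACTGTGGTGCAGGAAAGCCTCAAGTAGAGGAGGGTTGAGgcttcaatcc
CGB8, chr19:49049112-49049361, minus strand: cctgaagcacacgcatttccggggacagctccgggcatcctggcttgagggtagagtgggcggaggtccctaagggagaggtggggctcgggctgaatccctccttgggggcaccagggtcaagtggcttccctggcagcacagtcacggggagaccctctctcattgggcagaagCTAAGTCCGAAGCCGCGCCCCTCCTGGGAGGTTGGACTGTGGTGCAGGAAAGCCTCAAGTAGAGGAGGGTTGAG
CGB3, chr19:49024334-49024583, minus strand: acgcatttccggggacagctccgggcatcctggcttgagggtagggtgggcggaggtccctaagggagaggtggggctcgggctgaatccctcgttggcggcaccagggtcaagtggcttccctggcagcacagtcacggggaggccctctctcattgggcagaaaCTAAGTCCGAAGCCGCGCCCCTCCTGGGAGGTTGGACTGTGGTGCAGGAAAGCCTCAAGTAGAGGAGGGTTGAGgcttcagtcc
The alignment of the CGB5 and CGB8 stretches held 233 identical bases among 239, that of CGB5 and CGB3 held 241 among 249, and that of CGB8 and CGB3 held 235 among 240.

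The other 3 belong to IL11, the fourth largest rise, to AREG, the second largest fall, and to DDIT4, which also differed from TGFb with vehicle. Capitals mark, in IL11, a match to the AP-1 site TGANTCA; in AREG, a match to the cyclic AMP response element TGACGTCA; and in DDIT4, a match to ACGTG, the core shared by hypoxia response elements and E-boxes.
IL11, chr19:55370464-55370713, minus strand: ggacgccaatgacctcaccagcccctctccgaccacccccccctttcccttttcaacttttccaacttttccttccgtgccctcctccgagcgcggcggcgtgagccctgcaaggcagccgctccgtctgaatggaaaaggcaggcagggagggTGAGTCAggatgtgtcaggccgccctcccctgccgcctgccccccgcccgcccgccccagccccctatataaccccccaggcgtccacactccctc
AREG, chr4:74444886-74445135, plus strand: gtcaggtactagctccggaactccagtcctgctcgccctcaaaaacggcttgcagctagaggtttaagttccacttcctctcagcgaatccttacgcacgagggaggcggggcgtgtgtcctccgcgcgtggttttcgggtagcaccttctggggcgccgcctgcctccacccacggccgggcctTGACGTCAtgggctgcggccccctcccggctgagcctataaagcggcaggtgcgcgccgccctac
DDIT4, chr10:72273674-72273923, plus strand: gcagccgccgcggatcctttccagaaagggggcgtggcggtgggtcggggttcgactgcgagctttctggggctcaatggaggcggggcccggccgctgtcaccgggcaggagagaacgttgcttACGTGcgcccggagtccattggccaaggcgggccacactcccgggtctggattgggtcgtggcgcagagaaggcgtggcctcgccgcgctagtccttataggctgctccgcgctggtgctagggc
These matches began 96, 65 and 125 bases before the start. Both strands were searched, and of 35116 RefSeq promoter windows of this length, 6.57% held TGANTCA, 1.65% held TGACGTCA and 18.5% held ACGTG. The SMAD-binding core CAGAC was held by 38% of the windows, among them those of IL11, DDIT4, CAVIN2, EREG and ITGB8. None of the 4 motifs matched in the CGB5, CGB8 or CGB3 stretches shown. A match describes letters in this window and no more.

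Against mock, 12 h of TGFb with FT895 changed genes of the matrix, of secreted growth factors, of the epithelial state and of the cell cycle. The chorionic gonadotropin beta genes CGB5 and CGB8, COL1A1 and IL11 rose most, and the EGF receptor ligands AREG and EREG were among the deepest falls. Of the 12467 loci tested, 4674 (37.5%) were called at an adjusted p under 0.05 (limma on log2(FPKM + 1), Benjamini-Hochberg over all loci tested). Among them 1838 (14.7%) were higher and 2836 (22.7%) lower under TGFb with FT895. Most of these changes were small, with a median size of 0.396 on the log2 scale. A change of at least 1 was called for 219 loci (1.76%) upward and 163 (1.31%) downward, and one of at least 2 for 31 upward and 18 downward. The 3 libraries of TGFb with FT895 lay above all 3 of mock for 2633 loci (21.1%) and below them for 4391 (35.2%). The split between higher and lower calls depended on scaling. Higher calls made up 39.3% of calls with the values as deposited, 53.1% after median-of-ratios scaling and 47.9% after quantile normalization. The median of all loci stood at -0.068, -0.0078 and -0.028 under these 3 scalings.

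**Figure D1:**
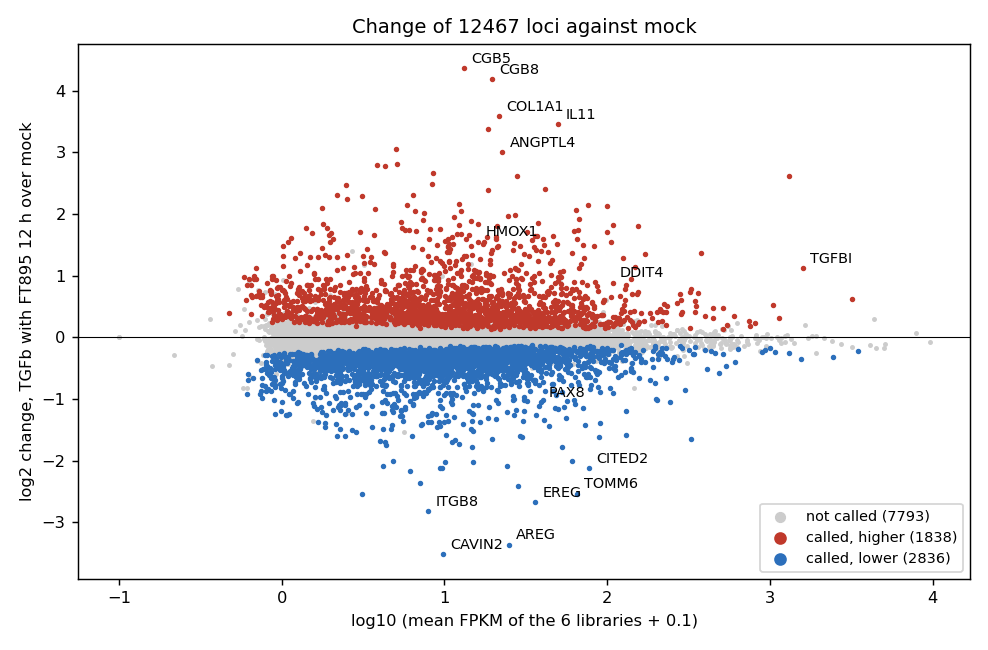
Change of each of 12467 loci, as log2(FPKM + 1) under TGFb with FT895 12 h minus that in mock (vertical axis), against the log10 mean FPKM of the 6 libraries (horizontal axis). Red points are the 1838 called higher and blue points the 2836 called lower; most called loci lie within 1 of no change, and CGB5, CGB8, COL1A1, IL11, AREG and CAVIN2 lie farthest out.

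Values below are means ± SD of FPKM over 3 libraries per group, changes are differences of log2(FPKM + 1) with the adjusted p of limma, and that scale understates changes of genes near or under 1 FPKM. The target of the inhibitor comes first. HDAC11 (ENSG00000163517, chr3:13479724-13506424 on GRCh38) had 2.59, 2.67 and 2.96 FPKM in the 3 libraries of TGFb with FT895 12 h and 3.19, 2.63 and 2.54 in those of mock. The groups overlapped, and the difference was -0.016 ± 0.089 (SE, adjusted p = 0.913). A transcript level does not measure the activity of an inhibited enzyme. Of the 17 deacetylase and sirtuin genes tested, HDAC1 and HDAC5 rose, which is 2 genes or 11.8%, and HDAC9, SIRT7, HDAC10, SIRT1 and HDAC3 fell, which is 5 genes or 29.4%. Over all loci these shares were 14.7% and 22.7%. The largest of these changes were HDAC9 at 5.64 ± 0.592 against 8.44 ± 0.587 FPKM in mock (-0.51) and HDAC5 at 3.18 ± 0.435 against 2.01 ± 0.165 (0.47). The median of the list was -0.016 and turned positive after median-of-ratios scaling (0.035) and quantile normalization (0.033).

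Direct targets of TGFb and SMAD rose under TGFb with FT895. COL1A1 (chr17:50183289-50201632), a chain of type I collagen, had 40.2, 40.2 and 41.1 FPKM against 2.69, 2.4 and 2.24 in mock (3.59 ± 0.088, adjusted p = 7.3e-13). The libraries of each group lay close together and the groups were far apart. The transcription factor gene SNAI1, a repressor of epithelial genes, stood at 31.9, 30.8 and 32.8 FPKM against 5.81, 5.58 and 4.47 (2.39, adjusted p = 3.07e-11). JUNB, a subunit of AP-1, stood at 125 ± 10.5 against 27.5 ± 3.4 FPKM (2.15). Of the 40 genes of this list, 36 were tested, 30 rose and 3 fell, where 14.7% and 22.7% of all loci did. HMOX1, described below as an NRF2 target, is among these rises. The list was chosen with earlier results of these data known, so that its counts are a description and no test. The median change was 1.13, beside -0.068 over all loci tested. The falls were ID2 (-0.72), TGIF1 (-0.26) and CCN1 (-0.20). The list also holds the feedback inhibitors SMAD7, at 19.6 ± 0.718 against 7.22 ± 0.194 FPKM in mock (1.33), and SKIL, at 51.8 ± 9.18 against 24.4 ± 2.57 (1.05, adjusted p = 6.11e-05). LTBP1, NOX4, LEFTY1 and MMP13 did not pass the filter.

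Ligands, receptors and SMADs moved in both directions. Among ligands, TGFB1 rose to 53 ± 1.17 FPKM, against 21.9 ± 1.01 in mock (1.24), TGFB3 rose to 1.99 ± 0.565, against 0.402 ± 0.0816 (1.08), and BMP4 fell to 0.535 ± 0.293, against 2.98 ± 0.339 (-1.39). TGFB2 had 114 ± 2.04 FPKM against 108 ± 2.31 in mock and was not called (adjusted p = 0.196). Of the receptors of TGFb, TGFBR1 rose to 11.5 ± 0.386 FPKM, against 6.78 ± 0.222 in mock, while TGFBR2 fell to 12.8 ± 0.146, against 20.4 ± 0.281. SMAD3, a receptor-activated SMAD, had 15.8, 16.5 and 16.9 FPKM under TGFb with FT895 and 40, 37.3 and 38 in mock (-1.18 ± 0.089, adjusted p = 9.42e-08). SMAD2 (-0.15) and SMAD4 (-0.01) were not called. In all, 10 of 24 tested members rose (41.7%, beside 14.7% of all loci) and 6 fell (25.0%, beside 22.7%), and the median of -0.043 turned to 0.021 after median-of-ratios scaling and 0.018 after quantile normalization. TGFB3 lay below 1 FPKM in mock and entered the test only through other groups, which favoured its count as a rise. Members named here beyond the 4 largest changes were picked after their values were seen.

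**Figure D2:**
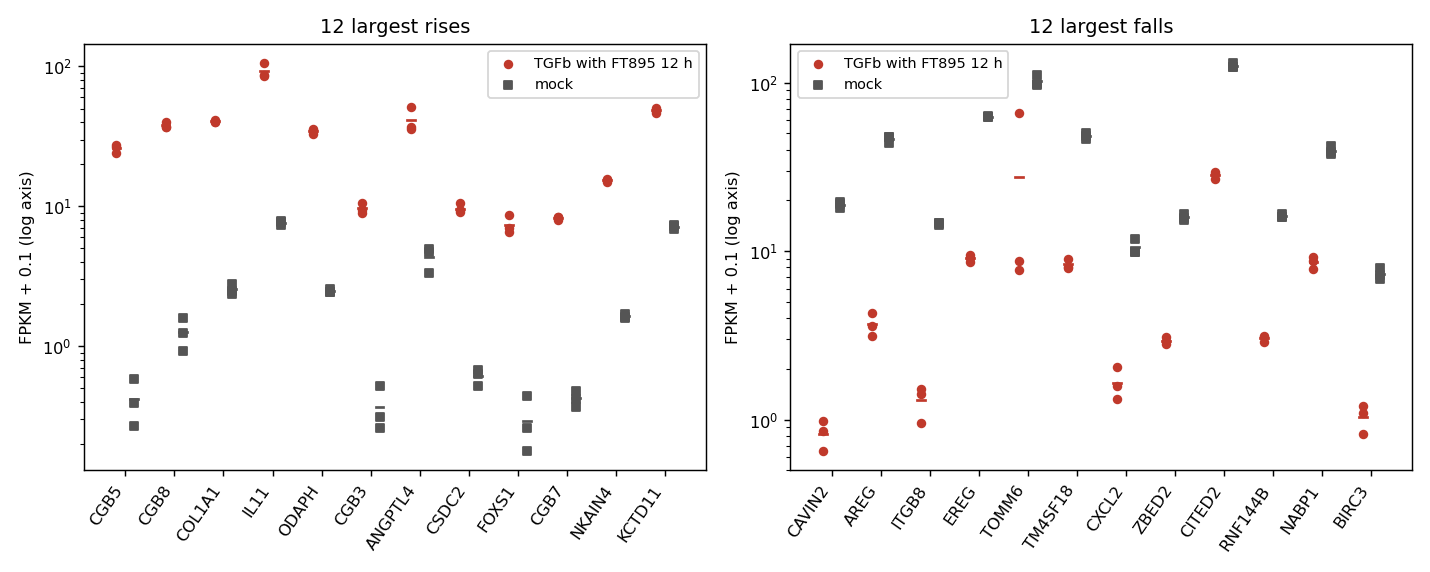
FPKM + 0.1 on a log axis for the 12 largest rises (left) and 12 largest falls (right) against mock, with 1 point per library, red circles for TGFb with FT895 12 h, grey squares for mock and a bar at each mean. The groups do not overlap for any of the 24 genes, which the choice of genes required; TOMM6 has 1 red point at 66.1 FPKM far above the other 2.

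The chorionic gonadotropin beta genes gave the largest rise of all. They encode the beta chain of the placental hormone, are clustered on chromosome 19 beside the luteinizing hormone gene LHB, and are expressed outside the placenta in some cultured epithelial lines. CGB5 (chr19:49043884-49045311) had 27.5, 24.1 and 26.5 FPKM under TGFb with FT895 and 0.295, 0.167 and 0.484 in mock (4.37 ± 0.15, adjusted p = 1.87e-11). CGB8 (chr19:49047638-49049106) had 37, 40.2 and 37.1 FPKM and 0.83, 1.15 and 1.5 in mock (4.19 ± 0.11, adjusted p = 9.2e-13). CGB3 reached 9.57 ± 0.884 FPKM, against 0.265 ± 0.139 in mock (3.06), and CGB7 8.13 ± 0.218, against 0.323 ± 0.0561 (2.79). For CGB1, CGB2 and LHB the levels under TGFb with FT895 were 5.23, 6.16 and 2.75, then 4.62, 4 and 3.78, then 3.75, 3.55 and 2.73 FPKM. In mock they were 0.301, 0.136 and 0.0586 for CGB1, 0, 0 and 0.105 for CGB2 and 0, 0 and 0.0335 for LHB. No library of one group reached the range of the other for any of these genes. Mock values were under 1 FPKM for all of them except CGB8, so that they passed the filter only through other groups, and the 7 calls of 7 tested genes are no evidence on the list. The alpha chain gene CGA, also on the list, was at 0 in all 15 libraries. The split of reads among the copies is uncertain: the annotated transcripts of CGB5 and CGB8 matched at 837 of 841 aligned bases, those of CGB3 and CGB5 at 835 of 841, and those of CGB5 and LHB at 474 of 513.

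Collagens rose and fell by chain. COL1A1 led, and COL27A1 rose to 20.7 ± 0.572 FPKM, against 6.17 ± 0.323 in mock (1.60), and COL16A1 to 14 ± 0.833, against 6.08 ± 0.416 (1.08). Of the type IV chains of the basement membrane, COL4A1 rose to 404 ± 8.36 FPKM, against 241 ± 4.93 in mock (0.74 ± 0.088, adjusted p = 1.05e-05). COL8A1 fell to 36.9 ± 0.741 FPKM, against 76.8 ± 2.21 (-1.04). Of 26 collagen genes 13 were tested, 7 rose (53.8%, beside 14.7% of all loci) and 3 fell (23.1%, beside 22.7%). COL1A2, the partner chain of COL1A1, reached at most 0.0445 FPKM in any library, and COL3A1 at most 0.0608.

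Other matrix genes were mixed. TGFBI, an adhesion protein of the matrix, had 2139, 2162 and 2244 FPKM under TGFb with FT895 and 986, 1041 and 972 in mock (1.12 ± 0.076, adjusted p = 2.77e-08). FN1 (fibronectin) had 1729, 1769 and 1740.0 FPKM and 1567, 1477 and 1536 in mock. Its groups did not overlap, but it was not called (0.19 ± 0.17, adjusted p = 0.398). The spread shared over all groups includes TGFb 1 h replicate 1, where FN1 had 740 FPKM. Without that library its adjusted p was 0.0025, and with the 6 compared libraries alone it was 0.0029. Of 28 laminin and glycoprotein genes tested, 8 rose (28.6%, beside 14.7% of all loci) and 5 fell (17.9%, beside 22.7%). The rises included BGN, which encodes biglycan (0.79), and the falls LAMA3, a laminin chain (-0.76), and LUM, which encodes lumican (-0.68).

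Of 31 tested enzymes that crosslink, cleave or protect matrix, 18 rose (58.1%, beside 14.7% of all loci) and 6 fell (19.4%, beside 22.7%), with a median of 0.369. ADAM19, a metalloprotease, rose to 31.5 ± 0.761 FPKM, against 9.72 ± 0.359 in mock (1.60). P4HA3, a prolyl hydroxylase of collagen, stood at 2.39 ± 0.275 against 0.379 ± 0.118 (1.30). With such a mock level P4HA3 entered the test only through other groups, which favoured its count as a rise. The crosslinking enzyme LOX stood at 102 ± 1.3 against 41.4 ± 1.15 (1.28). ADAMTS1, a protease that cleaves proteoglycans, fell to 30.6 ± 2.38 FPKM, against 69.4 ± 0.764 (-1.16). The gelatinase gene MMP2 was listed at 0 in all libraries.

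Mesenchymal and contractile genes rose for 16 of 24 tested (66.7%, beside 14.7% of all loci) and fell for 1, MYLK, the myosin light chain kinase (-0.64). Beside SNAI1, the rises were led by SPHK1, a sphingosine kinase, at 39.5 ± 1.37 against 9.36 ± 0.64 FPKM (1.97), and CNN1, a calponin, at 16.2 ± 0.302 against 5.42 ± 0.889 (1.43). N-cadherin, CDH2, had 165, 163 and 159.8 FPKM under TGFb with FT895 and 94.3, 94.1 and 93.5 in mock (0.78 ± 0.051, adjusted p = 1.64e-08). VIM (vimentin) rose by 0.32 (adjusted p = 0.00145), a call lost after quantile normalization (adjusted p = 0.0647). ACTA2, the smooth muscle actin of myofibroblasts, did not exceed 0.558 FPKM in any library.

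Epithelial genes did not move one way. KRT19 fell to 14.1 ± 0.738 FPKM, against 45.6 ± 2.47 in mock (-1.62), and CLDN2, a claudin of the leaky proximal tubule, to 0.653 ± 0.0474, against 3.69 ± 0.851 (-1.49). CLDN4 rose to 52.3 ± 1.79, against 18.4 ± 1.06 (1.46), and KRT7 to 87.5 ± 4.02, against 33.3 ± 2.44 (1.37). Of 25 junction and keratin genes tested, 8 rose (32.0%) and 10 fell (40.0%), beside 14.7% and 22.7% of all loci. Of the 13 proximal tubule genes tested out of 38, 3 rose (23.1%) and 8 fell (61.5%), with a median of -0.338. PAX8, a transcription factor of the nephron, had 23.9, 27.5 and 24.5 FPKM and 53.4, 51.2 and 55.6 in mock (-1.05 ± 0.083, adjusted p = 1.49e-07). SLC4A4, the basolateral bicarbonate transporter, fell to 3.67 ± 0.688, against 8.92 ± 0.162 (-1.10), whereas ASS1, an enzyme of arginine synthesis, rose to 39.9 ± 2.01, against 13.2 ± 0.611 (1.53). Among 26 tubular injury genes, 8 rose (30.8%) and 12 fell (46.2%). HAVCR1 (KIM-1) fell to 76 ± 6.96 FPKM, against 142 ± 8.2 in mock (-0.90), and the scaffold gene AKAP12 rose to 61.3 ± 3.62, against 19.6 ± 0.655 (1.59).

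Ligands of the EGF receptor family were divided, and AREG and EREG fell furthest. AREG (amphiregulin, chr4:74445134-74455009), whose upstream stretch is given above, had 4.18, 3.5 and 3.06 FPKM under TGFb with FT895 and 47.2, 47.4 and 43.6 in mock (-3.37 ± 0.12, adjusted p = 2.22e-11). EREG (epiregulin) had 9.4, 8.58 and 8.95 FPKM and 63.5, 62.9 and 62.2 in mock (-2.68 ± 0.054, adjusted p = 5.72e-14). Both were low in every library of TGFb with FT895 12 h and high in every mock library. TGFA stood at 7.18 ± 0.429 against 12.3 ± 0.681 FPKM (-0.70) and NRG1 at 26.4 ± 1.58 against 43.8 ± 8.92 (-0.69), both lower, while HBEGF was not called (33.5 ± 1.26 against 31.3 ± 0.625). EGF rose to 2.1 ± 0.154, against 1.05 ± 0.163 (0.60). The receptors EGFR (0.10) and ERBB2 (0.17) were not called. With PHLDA1 (-1.48) and the Sprouty and DUSP genes included, 11 of 20 tested members fell (55%, beside 22.7% of all loci) and 3 rose (15%, beside 14.7%), with a median of -0.358. LRIG3 was the largest rise, at 21.9 ± 0.53 against 6.26 ± 0.245 FPKM (1.66).

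Secreted growth and angiogenic factors rose for 12 of 22 genes tested (54.5%, beside 14.7% of all loci) and fell for 4 (18.2%, beside 22.7%). IL11, a secreted cytokine of the IL-6 family, is counted in other lists and not in this one. It had 87.4, 85.6 and 105 FPKM under TGFb with FT895 and 7.63, 7.21 and 7.69 in mock (3.46 ± 0.069, adjusted p = 5.72e-14). ANGPTL4, an inhibitor of lipoprotein lipase, had 35.5, 36.5 and 51.1 FPKM and 4.88, 4.63 and 3.21 in mock (3.0 ± 0.15), with 1 treated library above the other 2. VEGFA rose to 107 ± 2.52 FPKM, against 27.3 ± 1.48 in mock (1.93). PDGFB rose to 55.1 ± 1.41, against 17 ± 0.989 (1.64). ANGPTL7 had 4.71 ± 0.46 FPKM under TGFb with FT895 and was near 0 in mock, at 0.0294 ± 0.051 (2.47). It therefore entered the test only through other groups, which favoured its count as a rise. BDNF fell to 2.63 ± 0.0774, against 7.78 ± 0.288 (-1.27). In the list of glycolysis and hypoxia genes VEGFA and BHLHE40 (1.74) were the largest rises, but 16 of 41 members fell (39.0%) and 10 rose (24.4%). The deepest of these falls was CITED2, a regulator that limits HIF-1, with 29.3, 28.6 and 26.7 FPKM under TGFb with FT895 and 125, 130.2 and 124 in mock (-2.12 ± 0.08, adjusted p = 4.65e-11).

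Chemokines and NF-kB genes fell for 13 of 27 members tested (48.1%, beside 22.7% of all loci) and rose for 4 (14.8%, beside 14.7%), IL11 among them. CXCL2, a neutrophil chemokine, had 1.23, 1.49 and 1.96 FPKM under TGFb with FT895 and 9.85, 9.79 and 11.8 in mock (-2.17 ± 0.15, adjusted p = 2.79e-08). BIRC3, an inhibitor of apoptosis and an NF-kB target, stood at 0.943 ± 0.2 against 7.21 ± 0.565 FPKM (-2.08), and CCL20 at 2.83 ± 0.393 against 7.8 ± 0.762 (-1.20). CXCL8 (interleukin 8) fell to 158 ± 22.3 FPKM, against 329 ± 18.9 in mock (-1.06). Of 39 interferon-stimulated genes 10 fell (25.6%), a share near that of all loci, and 2 rose (5.13%). IFIT2, an antiviral protein that binds RNA, fell to 0.778 ± 0.0788 FPKM, against 2.48 ± 0.327 in mock (-0.97 ± 0.091, adjusted p = 1.02e-06).

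Adhesion genes held the deepest fall of all. CAVIN2 (chr2:191834302-191847255), a coat protein of caveolae, had 0.874, 0.752 and 0.55 FPKM under TGFb with FT895 and 18, 19.4 and 19.1 in mock (-3.52 ± 0.07, adjusted p = 5.72e-14). ITGB8, an integrin chain that binds latent TGFb, had 1.33, 1.42 and 0.86 FPKM and 14.6, 14.7 and 14.3 in mock (-2.83 ± 0.10, adjusted p = 1.87e-11). ITGB6, the chain of another integrin that activates latent TGFb, rose to 25 ± 1.61 FPKM, against 12.2 ± 0.489 (0.98). In this list 12 of 27 members rose (44.4%, beside 14.7% of all loci) and 8 fell (29.6%, beside 22.7%). The scaffold gene NEDD9 was the largest rise, at 31.7 ± 1.71 against 9.59 ± 0.58 (1.63), and CAV1 fell to 63.2 ± 4.53, against 118 ± 3.76 (-0.89).

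Other genes among the largest changes belong to none of these lists. ODAPH, known for enamel formation, had 34.5 ± 1.45 FPKM under TGFb with FT895 and 2.39 ± 0.0654 in mock (3.39). CSDC2, an RNA-binding protein, had 9.54 ± 0.743 against 0.507 ± 0.077 (2.81), and the forkhead gene FOXS1 had 7.3 ± 1.12 against 0.194 ± 0.135 (2.79). Both lay below 1 FPKM in mock and entered the test only through other groups, which favoured their place among the rises. NKAIN4 stood at 15.2 ± 0.497 against 1.54 ± 0.0553 (2.67) and KCTD11 at 48.4 ± 2.1 against 7.05 ± 0.278 (2.62). Among the falls, TM4SF18 had 8.24 ± 0.587 against 48.1 ± 1.8 FPKM (-2.41), and ZBED2 2.83 ± 0.137 against 15.8 ± 0.625 (-2.13). RNF144B, a ubiquitin ligase, had 2.93 ± 0.128 against 16.1 ± 0.385 (-2.12), and NABP1, a single-strand DNA-binding protein, had 8.51 ± 0.7 against 39.5 ± 2.37 (-2.09). TOMM6, a small subunit of the mitochondrial import channel, had 66.1, 7.63 and 8.61 FPKM under TGFb with FT895 and 97.2, 98.5 and 111 in mock. One treated library thus came near mock, and the call (adjusted p = 0.0128) was lost without TGFb with FT895 12 h replicate 2 (0.064) or replicate 3 (0.0622). Of the 931 unannotated loci tested, 143 rose (15.4%, beside 14.7% of all loci) and 120 fell (12.9%, beside 22.7%). The 5 of largest change ran from -2.54 to 1.87.

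**Figure D3:**
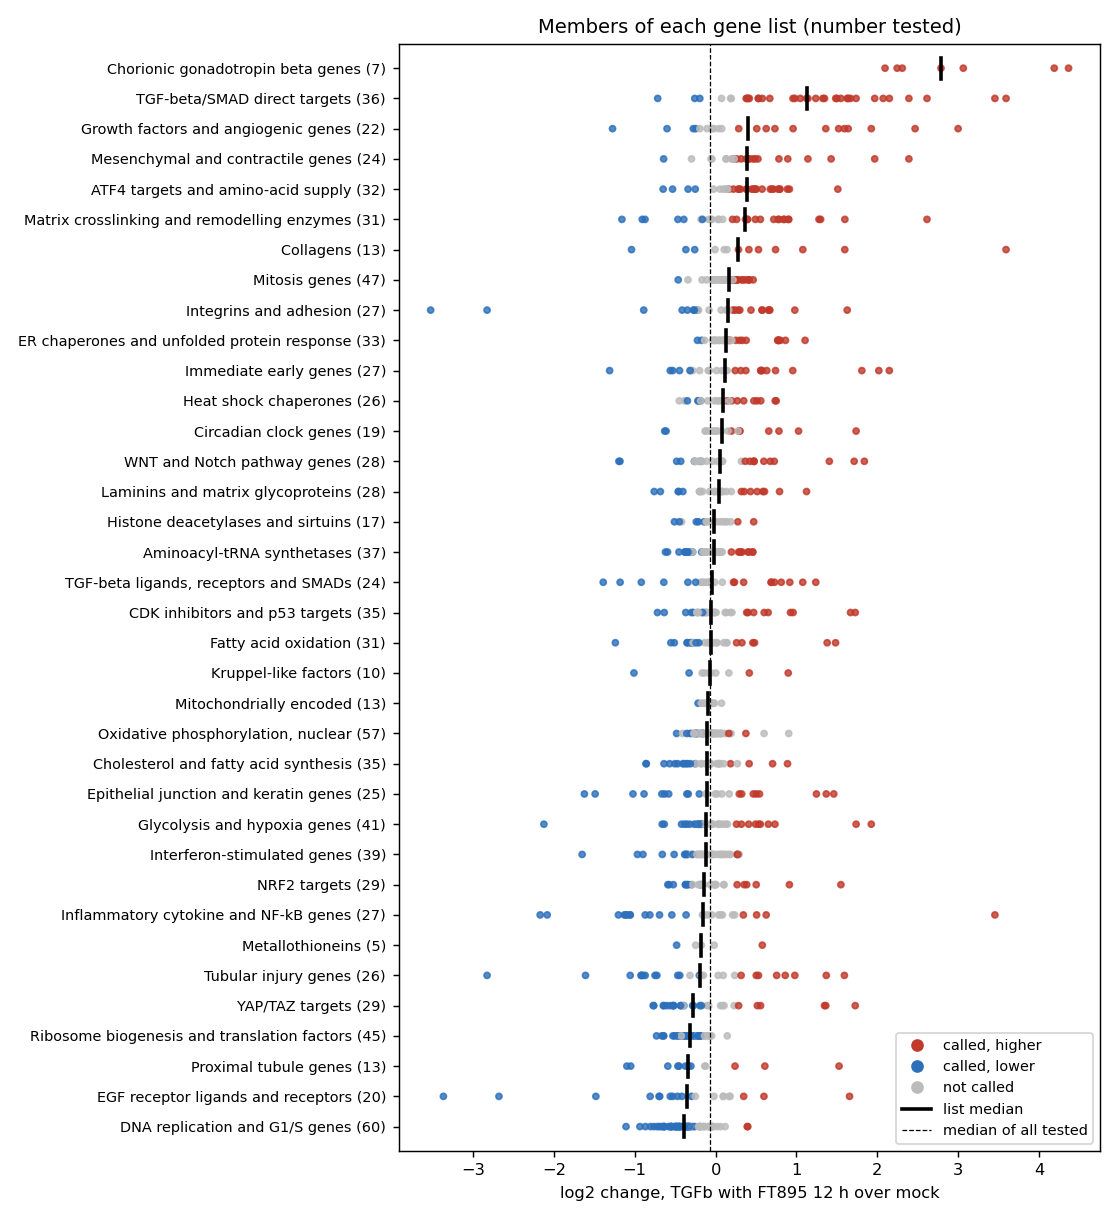
Log2 change under TGFb with FT895 12 h against mock of each tested member (1 point) of the gene lists with at least 5 tested members, with red for called higher, blue for called lower, grey for not called, a black bar at each list median and a dashed line at the median of all loci tested. The medians run from -0.394 for DNA replication and G1/S genes to 2.79 for chorionic gonadotropin beta genes; members of most lists lie on both sides of no change.

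Cell cycle genes moved by phase. Genes of DNA replication and the G1/S step fell for 42 of 60 members tested and rose for 2, with a median of -0.394, while 22.7% of all loci fell. E2F2, an activator of S-phase genes, fell to 0.575 ± 0.0835 FPKM, against 2.4 ± 0.333 in mock (-1.11). CCNE2 (cyclin E2) fell to 7.25 ± 1.88, against 14.6 ± 1.06 (-0.94), and UNG and MCM10 by similar amounts (-0.87 and -0.80). The rises were CCND1 (0.39) and E2F7 (0.40). Mitosis genes rose for 19 of 47 (40.4%, beside 14.7% of all loci) and fell for 1, KIF18A (-0.46), with a median of 0.164. NEK2 (0.46), CCNB2 (0.41) and PLK1 (0.41) were the largest rises, none of which reached 1. Among CDK inhibitors and p53 targets, CDKN2B (p15) rose to 18.6 ± 0.683 FPKM, against 5.18 ± 0.398 (1.67), and GADD45B to 96.5 ± 4.15, against 28.5 ± 1.44 (1.73). In that list 9 of 35 rose (25.7%) and 6 fell (17.1%), and its median of -0.056 turned to 0.0022 after median-of-ratios scaling.

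Genes of amino-acid supply and the ATF4 response rose for 22 of 32 members tested and fell for 4, with a median of 0.384, while 14.7% of all loci rose. SLC7A5, a carrier of large neutral amino acids, had 72.8 ± 6.4 FPKM under TGFb with FT895 and 24.8 ± 0.513 in mock (1.51 ± 0.082, adjusted p = 2.22e-09), and the cystine carrier SLC7A11 had 4.39 ± 0.272 against 1.86 ± 0.219 (0.91). DDIT4, an inhibitor of mTORC1 signalling, had 133, 137 and 151 against 76.7, 77.2 and 72 FPKM (0.89). Of 33 genes of ER chaperones and the unfolded protein response, 13 rose (39.4%) and 2 fell, led by CREB3L2 (1.11) and MANF (0.86). Of 26 heat shock genes, 9 rose (34.6%) and 4 fell (15.4%), with HSPA1A (0.75) and HSPB8 (0.74) highest; HSPA1A and HSPA1B are near-identical copies whose reads may be split arbitrarily. Ribosome biogenesis and translation factor genes did not rise for any of 45 members, and 31 fell, with a median of -0.313, while 22.7% of all loci fell. NOP58 (-0.73) and POLR1B (-0.67) were the deepest falls.

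Aminoacyl-tRNA synthetase genes rose for 9 of 37 members (24.3%, beside 14.7% of all loci) and fell for 10 (27.0%, near the 22.7% of all loci). The rises were YARS1, SARS1, LARS1, GARS1, MARS1, AARS1, CARS1 and WARS1, which serve the cytosol, and the mitochondrial TARS2, from 0.20 to 0.46. The falls included the mitochondrial CARS2, WARS2, MARS2, HARS2, YARS2, VARS2 and SARS2 and the cytosolic FARSA and FARSB, from -0.62 to -0.17. GARS1 serves both compartments. The compartments are named after the values were seen and were not tested against each other. The median of the list, -0.021, turned positive after median-of-ratios scaling (0.047) and quantile normalization (0.0022).

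Metabolic lists were mixed. Nuclear and mitochondrially encoded genes of oxidative phosphorylation were called less often than all loci. The lists of fatty acid oxidation, of cholesterol and fatty acid synthesis and of NRF2 targets held somewhat larger shares of falls than the 22.7% of all loci. Those of fatty acid oxidation and NRF2 targets also held larger shares of rises than the 14.7% of all loci. The median of fatty acid oxidation genes, -0.060, was near the -0.068 of all loci, and these counts show no shift in 1 direction for that list. Of 57 nuclear genes of oxidative phosphorylation 2 rose (3.51%, beside 14.7% of all loci) and 7 fell (12.3%, beside 22.7%), and of 13 mitochondrially encoded genes 1 fell, MT-CO3, whose call was lost in 8 alternative fits. Of 31 fatty acid oxidation genes 6 rose (19.4%) and 10 fell (32.3%). PPARGC1A, a coactivator of mitochondrial genes, fell to 1.14 ± 0.196 FPKM, against 4.04 ± 0.124 (-1.24), and PPARD rose to 21.7 ± 0.977, against 7.1 ± 0.184 (1.48). CPT1A, which brings fatty acids into mitochondria, had 3.38 ± 0.247 against 4.42 ± 0.226 (-0.31 ± 0.083, adjusted p = 0.00893). Of 35 genes of cholesterol and fatty acid synthesis, 4 rose (11.4%) and 12 fell (34.3%), with STARD4 (0.89), a carrier of cholesterol, the largest rise, and LPIN1 (-0.86), a phosphatidate phosphatase, among the falls. Of 29 NRF2 targets 6 rose (20.7%) and 9 fell (31.0%). HMOX1 (heme oxygenase 1, chr22:35380361-35394214), a member of this list, had 24.1, 24.5 and 24.6 FPKM under TGFb with FT895 and 8.34, 7.85 and 6.88 in mock (1.55 ± 0.069, adjusted p = 2.71e-10). Its treated libraries agreed within 0.5 FPKM and lay far above mock.

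Signalling lists were likewise mixed. Of 29 YAP/TAZ targets 16 fell (55.2%, beside 22.7% of all loci) and 6 rose (20.7%, beside 14.7%). GADD45B, IGFBP3 (539.9 ± 26.2 against 209 ± 8.37 FPKM in mock, 1.36) and CCN2 (246 ± 19.8 against 96 ± 0.323, 1.35) were the largest rises, and MYOF (-0.77) the deepest fall. Of 28 WNT and Notch genes 11 rose (39.3%) and 6 fell (21.4%). HES1, a Notch target, rose to 25.7 ± 3.27 FPKM, against 6.44 ± 0.521 (1.84), the Notch ligand JAG1 to 153 ± 4.02, against 45.8 ± 1.3 (1.71), and the WNT antagonist DKK1 fell to 18.3 ± 1.49, against 43.3 ± 3.02 (-1.20). Of 27 immediate early genes 12 rose (44.4%) and 5 fell (18.5%), with JUNB, EGR2 (2.02) and IER3 (1.81) highest and FOSL1 (-1.31) lowest. Of 10 Kruppel-like factors 2 rose, KLF7 (0.90) and KLF10 (0.42), and 2 fell, KLF5 (-1.01) and KLF11 (-0.33). Of 19 clock genes 7 rose (36.8%) and 2 fell (10.5%). BHLHE40 and BMAL1 (1.03) rose most, and NR1D2 (-0.63) fell most. Of 5 metallothionein genes, MT1X rose (0.58) and MT1M fell (-0.48), the second of these calls being lost in 8 alternative fits.

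Most markers of other cell types did not pass the filter. Of 16 fibroblast and pericyte markers 4 were tested, 1 rose and 3 fell, with a summed level of 109.6 to 111.3 FPKM under TGFb with FT895 and 129.0 to 133.9 in mock; PDGFRA and PI16 were listed at 0. Of these falls, the calls of MCAM (-0.21) and RGS5 (-0.45) were lost in 8 and 6 alternative fits. Of 13 endothelial markers only ESAM was tested, and it rose (0.52); the sums were 3.54 to 3.95 FPKM under TGFb with FT895 and 2.27 to 2.77 in mock, and KDR, FLT1 and VWF were listed at 0. Of 14 leukocyte markers 2 were tested. CD68 fell (-0.25) and CSF1R, the receptor of CSF1, rose to 2.71 ± 0.114 FPKM, against 0.151 ± 0.0395 in mock (1.69), with sums of 36.8 to 41.0 under TGFb with FT895 and 41.3 to 44.5 in mock, and with CD3D, CD3E, MS4A1 and TYROBP at 0. Of 17 markers of the distal nephron and podocytes 3 were tested, PODXL rose (0.82) and SCNN1A fell (-0.70), with sums of 15.3 to 16.1 FPKM under TGFb with FT895 and 13.1 to 13.7 in mock, and with UMOD, AQP2, SCNN1B, SCNN1G, CALB1, NPHS1 and WT1 at 0. Over all loci 14.7% rose and 22.7% fell, and with so few tested members these counts are no evidence on a marker list. CSF1R was under 1 FPKM in mock, so that it passed the filter only through other groups. The part of these markers in the changes above was not tested. In bulk RNA, a change in the number of cells of a type and one in RNA per cell cannot be told apart.

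The change against mock was next set beside that of TGFb with vehicle at the same time. Both comparisons use the same mock libraries, so that their values are only placed side by side here, and the difference was tested directly between the 12 h groups. TGFb with vehicle for 12 h changed 4814 loci against mock (38.6%), 1765 upward (14.2%) and 3049 downward (24.5%). COL1A1 changed by 3.59 with FT895 and by 3.75 with vehicle, CGB5 by 4.37 and 4.38, AREG by -3.37 and -3.55, and CAVIN2 by -3.52 and -3.56. In the direct test, 2 of 12467 loci (0.016%) were called, HMOX1 and DDIT4, both higher with FT895 than with vehicle. At an unadjusted p under 0.05, 471 loci (3.78%) were higher and 296 (2.37%) lower.

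HMOX1, which degrades heme, had 24.1, 24.5 and 24.6 FPKM under TGFb with FT895 12 h and 15, 14.5 and 13.1 under TGFb 12 h. The groups were well apart, with a difference of 0.74 ± 0.069 (SE; 95% interval 0.59 to 0.89; adjusted p = 0.000391, limma), and the call held in all 14 alternative fits run, at adjusted p-values up to 0.0151. DDIT4 had 133, 137 and 151 FPKM under TGFb with FT895 12 h and 99.7, 107 and 99.2 under TGFb 12 h, again without overlap (0.45 ± 0.059; 95% interval 0.33 to 0.58; adjusted p = 0.0115). The DDIT4 call was lost without TGFb with FT895 12 h replicate 3 (adjusted p = 0.0843), without TGFb 12 h replicate 1 (0.0968) or replicate 3 (0.0712), and with the compared libraries alone (0.149), while its size stayed between 0.40 and 0.49. The 95% interval of the difference lay within ±0.5 for 11496 of the 12467 loci (92.2%) and within ±1 for 12339 (99.0%). Of the 382 loci called against mock with a change of at least 1, it lay within ±0.5 for 336 and within ±1 for 373. For COL1A1 the interval was -0.35 to 0.027, for IL11 -0.16 to 0.13, and for HDAC11 -0.15 to 0.23. The intervals for CSDC2 (-0.48 to -0.12) and CXCL2 (-0.75 to -0.12) lay below 0 and that for KCTD11 (0.15 to 0.37) above it, but none of these genes was called (adjusted p = 0.365, 0.607 and 0.0812). The same held for ZBED2 (-0.42 to -0.056), RNF144B (-0.30 to -0.039) and ANGPTL4 (0.021 to 0.68), none of them called.

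The number of calls between the 12 h groups changed with the libraries in the fit. With the 6 compared libraries alone, 1 locus was called, HMOX1. Without TGFb 1 h replicate 1, which enters only through the shared spread, 44 loci were called, 23 higher and 21 lower with FT895. Besides HMOX1 and DDIT4, the higher ones included the ATP receptor gene P2RX5 (0.63). Hexokinase 2, HK2, had 9.41 ± 0.632 FPKM under TGFb with FT895 and 6.48 ± 0.7 under TGFb (0.48; adjusted p = 0.0105 without that library, 0.0552 with it). The glucose transporter SLC2A3 (0.43), PFKFB4 (0.34) and PFKFB3 (0.22), which set the level of an activator of glycolysis, and PFKM (0.23), a phosphofructokinase, were also among the higher genes. So were ODC1 (0.39), the lipid droplet gene PLIN2 (0.36), NDRG1 (0.33), KCTD11 (0.26) and TXNIP (0.25). SLC2A3 was also called with a pseudocount of 0.1, with a mean of at least 1 FPKM and after both scalings. PFKFB3 (limma adjusted p = 0.501 over all 15 libraries) and PFKM (0.127) were called only in the fit without TGFb 1 h replicate 1. GBE1, the glycogen branching enzyme, was lower (-0.25). Over the list of glycolysis and hypoxia genes the difference had a median of -0.022 and ran from -0.279 to 0.608, with no member called over all 15 libraries.

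Of the 21 lower genes in that fit, NPPB, a natriuretic peptide gene, had 9.64 ± 1.49 FPKM under TGFb with FT895 and 16.1 ± 0.144 under TGFb (-0.70; adjusted p = 0.0105 without that library, 0.0812 with it). CSF1, the macrophage growth factor, had 16.8 ± 0.638 against 23.4 ± 0.64 FPKM (-0.45; 0.00108 and 0.0516). The transferrin receptor TFRC stood at 64.8 ± 2.53 against 88.4 ± 8.27 (-0.44; 0.0186 and 0.0552). IGFBP3 (-0.29), TNFSF10 (-0.43), NFKBIA (-0.25), TNFAIP2 (-0.34), CYP1B1 (-0.49) and DDR1 (-0.34) were lower as well. TNFSF10 and CYP1B1 were also called with a pseudocount of 0.1, with a mean of at least 1 FPKM and after both scalings. CSF1 was called in the same fits except after quantile normalization, and TFRC after median-of-ratios scaling. These genes were picked from the 44 after their values were seen.

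**Figure D4:**
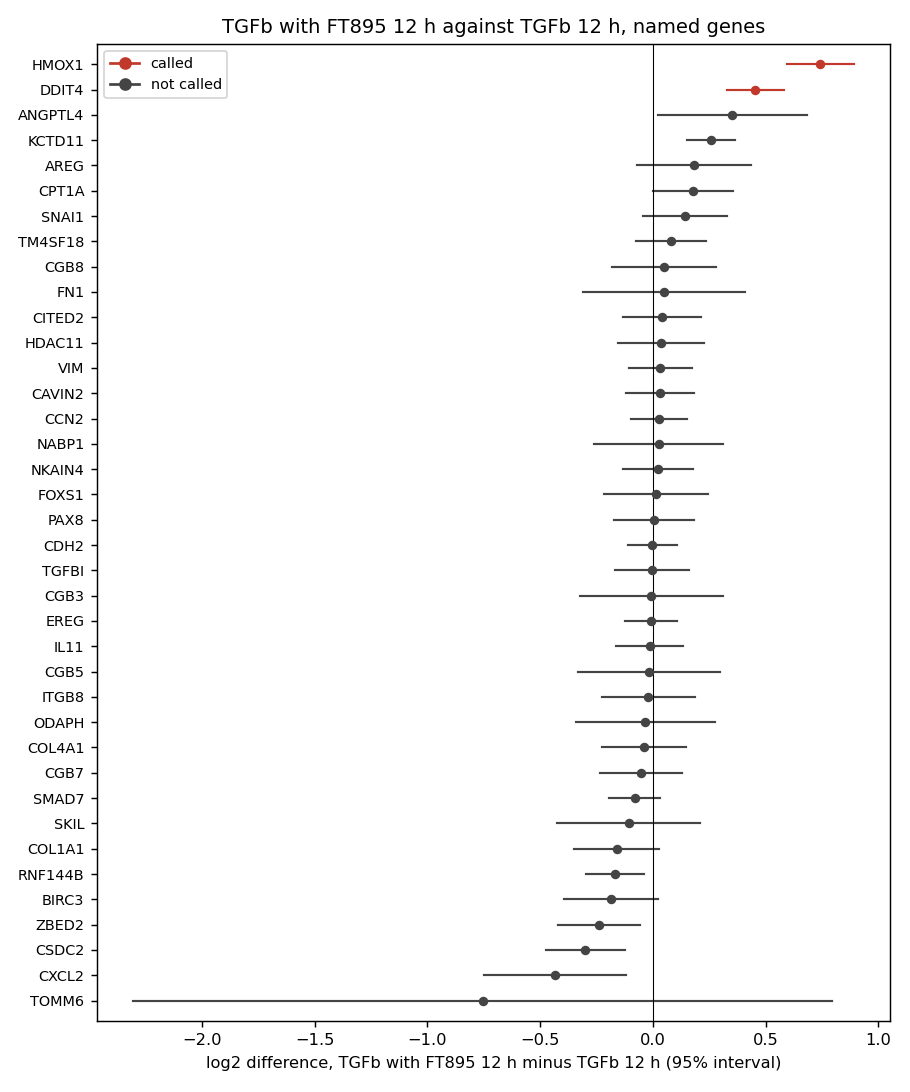
Difference of log2(FPKM + 1) between TGFb with FT895 12 h and TGFb 12 h (points) with its 95% interval (lines) for landmark genes and the largest changes against mock. HMOX1 and DDIT4 (red) were called; the other genes (grey) were not, and TOMM6 has an interval from -2.31 to 0.80.

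The lists had small medians between the 12 h groups. The list medians of the difference ran from -0.138 for inflammatory and NF-kB genes, none of whose members was called, to 0.104 for ATF4 targets, of which DDIT4 was called. Beside these, the median over all loci was 0.0095. Ribosome biogenesis genes had a median of 0.097 in this difference, against -0.313 for TGFb with FT895 against mock and -0.391 for TGFb with vehicle against mock. For EGF receptor ligands, receptors and feedback genes the median was 0.072, against -0.358 with FT895 and -0.550 with vehicle over mock. No member of either list was called between the 12 h groups.

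Last, 12 h of TGFb with FT895 was set against 1 h of the same treatment. At 1 h, 476 loci had changed against mock (3.82%), 326 upward (2.61%) and 150 downward (1.2%). Between 12 h and 1 h, 4764 loci were called (38.2%), 1677 higher at 12 h (13.5%) and 3087 lower (24.8%). A change of at least 1 was called for 163 loci upward (1.31%) and 148 downward (1.19%). The 5 largest rises were CGB8 (3.59), CGB5 (3.55), COL1A1 (3.40), CGB3 (2.81) and CSDC2 (2.70). COL1A1 had 40.5 ± 0.497 FPKM at 12 h and 2.93 ± 0.311 at 1 h, the second of these close to the 2.44 ± 0.229 of mock. The 5 largest falls were AREG (-3.24), CAVIN2 (-2.92), ITGB8 (-2.67), EREG (-2.49) and ID2 (-2.47). AREG had 3.58 ± 0.567 FPKM at 12 h and 42.2 ± 3.36 at 1 h.

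The genes differed in when they moved. IL11 had 75.9 ± 1.28 FPKM at 1 h and 92.7 ± 10.8 at 12 h of TGFb with FT895, with 7.51 ± 0.258 in mock, so that most of its change was present at 1 h. SNAI1 was higher at 1 h (43.4 ± 1.82) than at 12 h (31.8 ± 1), with a 12 h minus 1 h difference of -0.43 (adjusted p = 0.00116). SMAD7 likewise had 35.7 ± 1.6 FPKM at 1 h and 19.6 ± 0.718 at 12 h (-0.83, adjusted p = 2.27e-08). ID2, an inhibitor of helix-loop-helix factors, had 16.2 ± 0.428 FPKM at 1 h, above the 4.14 ± 0.722 of mock, and 2.11 ± 0.0847 at 12 h, below it. CITED2 was already at 33.6 ± 4.33 FPKM at 1 h and stood at 28.2 ± 1.34 at 12 h, with 126 ± 3.31 in mock. CXCL2 had 2.63 ± 0.501 FPKM at 1 h and 1.56 ± 0.37 at 12 h.

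**Figure D5:**
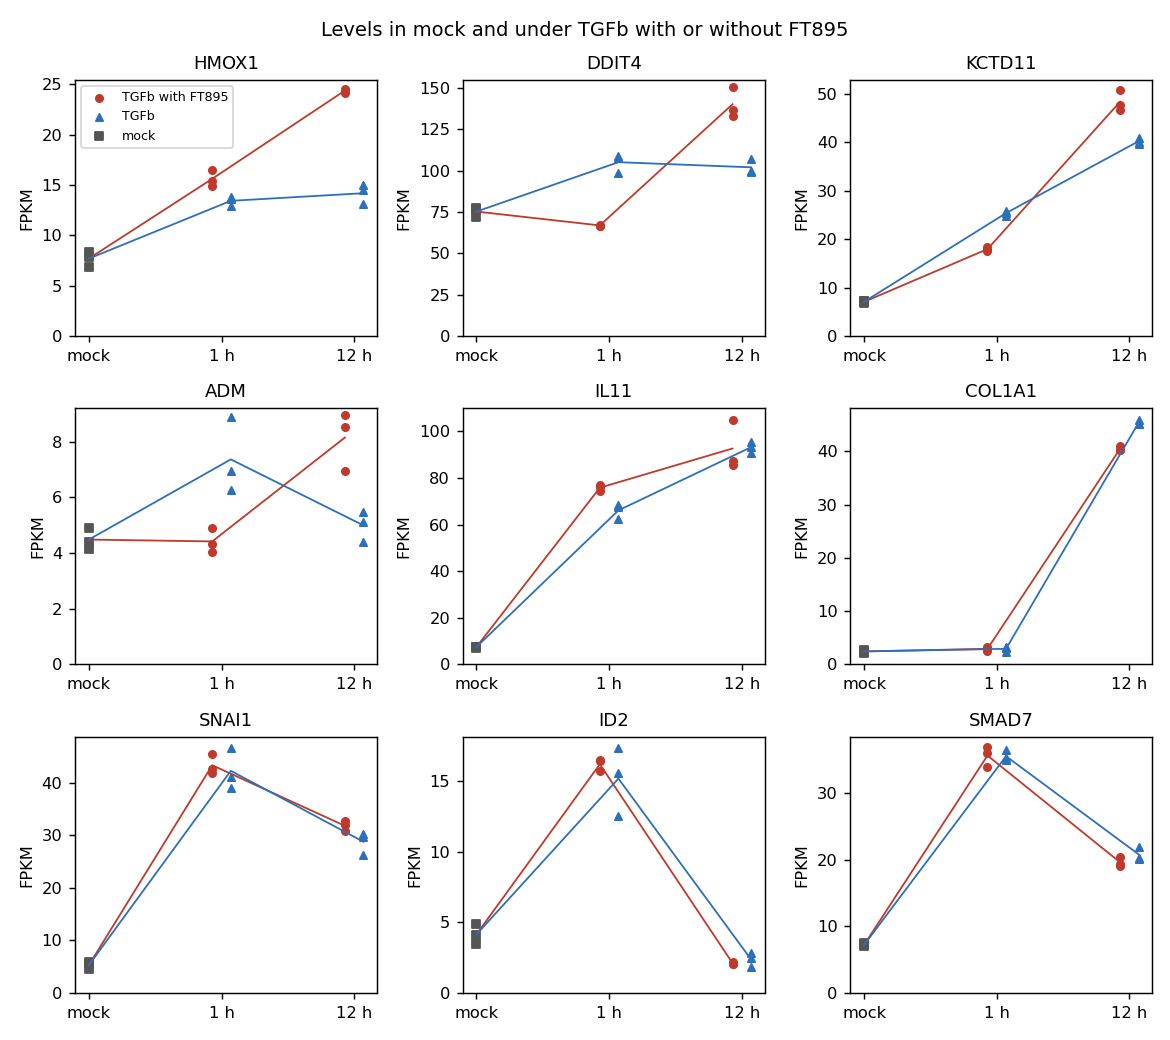
FPKM of 9 genes in mock (grey squares) and at 1 h and 12 h of TGFb with FT895 (red circles) or TGFb with vehicle (blue triangles), with 1 point per library and lines through the group means; the time axis is not to scale. HMOX1 and DDIT4 separate the red and blue groups at 12 h, while SMAD7, SNAI1 and ID2 follow nearly the same course in both.

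DDIT4 and HMOX1 had different courses. DDIT4 had 66.9 ± 0.453 FPKM at 1 h of TGFb with FT895, beside 75.3 ± 2.88 in mock, and 140.3 ± 9.31 at 12 h. With vehicle it had 105 ± 5.51 at 1 h and 102 ± 4.55 at 12 h. HMOX1 was at 15.6 ± 0.802 FPKM at 1 h and 24.4 ± 0.258 at 12 h with FT895, and at 13.4 ± 0.497 and 14.2 ± 0.963 with vehicle, each above the 7.69 ± 0.738 of mock.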

How the data were processed

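Per the labels' protocols, RNA was extracted with Trizol and DNase I and sequenced on an Illumina platform. Per the submitters' processing notes, HISAT2, StringTie and the GRCh38 build were used; the sources used here give no versions, annotation release or strandedness. The values deposited by the authors are FPKM, 1 column per library. Antisense and paralogous reads cannot be separated from them. Low values showed no read unit: in 15 replicate pairs, the fullest bin of log2 ratios held 1.59 to 2.76% of 693 to 807 low loci.

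Symbols were taken by Ensembl identifier, which matched 19883 of 19974 genes, and coordinates from GENCODE v29 on GRCh38. Upstream sequences are from RefSeq on GRCh38.p14, where 9 of 12 genes looked up had an entry. HMOX1 and COL1A1 are named only. Some genes of the lists are not reported by name here.

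Log2(FPKM + 1) of 12467 loci was fitted in limma 3.58.1 (R 4.3.3; lmFit, eBayes with a trend) with a mean per group over all 15 libraries, 10 residual degrees of freedom and a median prior of 4.34. Tests were two-sided, with Benjamini-Hochberg adjustment per comparison and calls at 0.05. The script was tested on simulated data. Alignments used Biopython 1.88.

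The members and the 40 gene lists were chosen with earlier results of these data known, and lists are described by counts and medians, with no set test. Named genes were 16 landmarks, the 12 largest rises and falls against mock and smaller sets from the other comparisons. The called members with the largest changes in each list, no more than 4, were also named. The largest changes of each comparison had to be called and to average 5 FPKM or more in the higher group. For those against mock, the libraries also had to be without overlap. Other genes named were chosen after their values were seen. Alternatives changed the pseudocount, the filter, the scaling, the libraries in the fit and the replicate block.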

Additional observations from a re-analysis of the deposited data

Results flagged for a closer look

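For 4 named genes the difference between TGFb with FT895 and TGFb with vehicle was not the same at 12 h as at 1 h, by a test of that difference over both times (limma interaction on log2(FPKM + 1), Benjamini-Hochberg over 12467 loci). DDIT4 had an interaction of 1.10 ± 0.083 (SE, adjusted p = 2.67e-05): it was higher with FT895 at 12 h and lower with FT895 at 1 h. ADM, the vasodilator peptide adrenomedullin, had an interaction of 1.23 ± 0.17 (adjusted p = 0.00642). Its levels at 12 h were 6.95, 8.54 and 8.96 FPKM with FT895 and 4.38, 5.49 and 5.1 with vehicle, and at 1 h 4.9, 4.32 and 4.03 with FT895 and 6.94, 6.25 and 8.9 with vehicle. KCTD11, an adaptor of a ubiquitin ligase, had an interaction of 0.74 ± 0.071 (adjusted p = 0.000136), with 47.7, 46.6 and 50.7 FPKM with FT895 and 40.9, 39.7 and 40.1 with vehicle at 12 h, and 17.9, 18.4 and 17.4 with FT895 and 24.8, 25.9 and 25.4 with vehicle at 1 h. HMOX1 had an interaction of 0.54 ± 0.10 (adjusted p = 0.046), with its FT895 libraries above the vehicle libraries at both times and by more at 12 h. The 1 h vehicle group includes the library that stood apart, TGFb 1 h replicate 1. In a fit without it, chosen after seeing the data, the interactions were 1.08 for DDIT4, 1.26 for ADM, 0.75 for KCTD11 and 0.57 for HMOX1, all of them called (adjusted p = 2.38e-05, 0.00962, 9.9e-05 and 0.0311).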

How the results depend on the processing

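The count of genes called against mock stayed within 1.5 times the 4674 reported in every alternative. It was 4650 with a pseudocount of 0.1, 4741 with no filter on low values, 4497 with a mean of at least 1 FPKM, 4311 after median-of-ratios scaling, 4586 after quantile normalization and 5753 with the compared libraries alone. It was 5721 without TGFb 1 h replicate 1, and 3724 to 3930 without single replicates. The count against TGFb with FT895 1 h (4764) stayed between 3905 and 5926. The count against TGFb 12 h (2) was 6 with a pseudocount of 0.1, 5 with no filter, 6 with a mean of at least 1 FPKM, 7 after median-of-ratios scaling, 5 after quantile normalization, 1 with the compared libraries alone, 44 without TGFb 1 h replicate 1, and 1 to 5 without single replicates of both groups. For these counts between the 12 h groups the cause was not tested. HMOX1 was called each time, and DDIT4 was not with the compared libraries alone, with the replicate block (adjusted p = 0.0571) or without 3 of the 6 replicates in turn.

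Of 156 named genes, 148 kept their call against mock in every alternative; FN1 gained it, and MCAM, MT-CO3, MT1M, NDUFC1, RGS5, TOMM6 and VIM lost it in at least 1. No direction of a called gene was reversed. Counts of called list members moved by over 1.5 times in 93 instances and stayed within that in 1027.

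The replicate numbers do not pair the samples: same-numbered libraries of TGFb with FT895 12 h and mock had deviations correlated at 0.044, 0.019 and -0.055. With the replicate number as a block, 4577 genes were called against mock, 1 against TGFb 12 h (HMOX1) and 4670 against TGFb with FT895 1 h.

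With no counts, depth and counting error are unknown, and small differences of genes near 1 FPKM are the least certain.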
